A study of Homo sapiens with 12 samples.

Results

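The genes described here are 10 enzymes that break down, reduce or oxidize drugs, aldehydes and lipids in A549 cells: CES1, CYP4F11, CYP4F3, CYP4F12, AKR1C1, AKR1C2, AKR1C3, AKR1B10, ALDH1A1 and ALDH3A1. They are 10 of the 25365 names in the table of expression values, and they were chosen by symbol with their levels in these libraries known. CES1 and CYP4F11 were selected for a lower level in PARP3-/- cells, and the aldo-keto reductases for their abundance, so the differences between genotypes are given for these 10 genes as a description; the 1 count of calls among them is fixed by that choice and supports nothing. Of the 25365 names, 11881 had a mean of at least 1 FPKM over all libraries, a read count divided by transcript length and library size, and were tested. The 10 enzymes are all among them, but CES1 and CYP4F11 reached that mean only through the wild-type libraries.

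A549 is an epithelial line from a human lung adenocarcinoma. The 4 groups were wild-type cells with vehicle (DMSO), PARP3-/- cells with vehicle, wild-type cells with 1 μM pyridostatin and PARP3-/- cells with 1 μM pyridostatin, each treated for 24 h and each with 3 biological replicates, which gave 12 libraries. Pyridostatin binds and stabilizes G4 DNA, a structure of guanine-rich strands. The PARP3-/- cells carry a deletion that Cas9 made in the first exon of PARP3, and they were cloned by serial dilution; how many clones stand behind the libraries is not given in the sources used here, so a difference between genotypes cannot be told apart from a difference between clones.

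Carboxylesterase 1, the product of CES1, cleaves ester and amide bonds in drugs and lipids. The CYP4F enzymes are cytochromes P450 that hydroxylate fatty acids, leukotrienes and some drugs at or near the omega end of the chain. Aldo-keto reductases turn aldehydes and ketones into alcohols with NADPH, aldehyde dehydrogenases turn aldehydes into acids, and many genes of both families answer to NRF2, the regulator of the response to electrophiles.

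The level of PARP3 itself, examined as a check of the labels, was not lower in the libraries labelled PARP3-/-. Among vehicle libraries the mean was 4.41 ± 0.447 FPKM for PARP3-/- against 3.73 ± 0.293 FPKM for wild type (SD, n = 3 each), 0.683 FPKM apart with an exact permutation p of 0.1 (two-sided), which is as low as 3 against 3 can go. Among pyridostatin libraries it was 4.58 ± 0.245 against 3.79 ± 0.243 FPKM (n = 3 each), 0.792 FPKM apart with the same exact p of 0.1. The directions below therefore follow the labels of the libraries. One library stood apart: wild-type vehicle replicate 2 had a summed level of 563473 FPKM against 492839 to 525124 FPKM in the other libraries. Some values of the enzymes that rest on it are given with and without it, and values of single genes outside the enzymes with it only. Depth is not part of FPKM values; an estimate from the steps between low values gave 21.9 to 31.0 M reads per library.

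The members fall into 6 places in the genome. CES1 lies on chromosome 16, the 3 CYP4F genes in one cluster of 294 kb on chromosome 19, the 3 AKR1C genes in one cluster of 144 kb on chromosome 10, AKR1B10 on chromosome 7, ALDH1A1 on chromosome 9 and ALDH3A1 on chromosome 17 (NCBI RefSeq, GRCh38.p14). Within a cluster the genes are close copies, which bears on how single-end reads of 75 bases can be assigned. The coding sequences of AKR1C1 and AKR1C2 were 98.0% identical and those of AKR1C1 and AKR1C3 91.4%, while CYP4F11 was 86.8% identical to CYP4F3 and 86.6% to CYP4F12. The middle of each coding sequence is shown to let the copies be compared, from base 749 to 823 of the coding sequence for CYP4F and from base 448 to 522 for AKR1C (transcripts of GENCODE release 29, 5′ to 3′), with capitals where a gene differs from the first of its family.
CYP4F11: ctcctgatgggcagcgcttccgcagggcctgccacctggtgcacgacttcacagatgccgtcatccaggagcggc
CYP4F3: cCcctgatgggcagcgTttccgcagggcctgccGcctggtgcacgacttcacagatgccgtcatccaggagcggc
CYP4F12: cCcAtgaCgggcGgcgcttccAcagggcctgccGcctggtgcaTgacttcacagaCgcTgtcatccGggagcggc
AKR1C1: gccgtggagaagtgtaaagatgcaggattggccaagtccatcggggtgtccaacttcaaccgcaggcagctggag
AKR1C2: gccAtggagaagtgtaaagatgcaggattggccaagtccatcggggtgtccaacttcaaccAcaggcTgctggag
AKR1C3: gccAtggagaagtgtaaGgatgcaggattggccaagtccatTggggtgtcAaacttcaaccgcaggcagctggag

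Counted over all windows of 75 bases in 1 transcript per gene, the share of windows found unchanged in a transcript of another gene was 0% for CYP4F11, ALDH1A1 and ALDH3A1. It was 4.28% for CYP4F3, 1.07% for CYP4F12, 7.45% for AKR1B10 and 7.91% for AKR1C3. CES1 shared 27.2% of its windows, nearly all of them with the pseudogene CES1P1 (26.8%). AKR1C1 shared 22.2% and AKR1C2 41.3% of their windows, mainly with each other. The split of reads between AKR1C1 and AKR1C2 is therefore uncertain, and that between CES1 and CES1P1 partly so.

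The 250 bases before the transcription start were found for 6 of the 10 genes, in a table of 35116 RefSeq promoters on GRCh38.p14; CES1, CYP4F12, AKR1B10 and ALDH3A1 were not matched. Searched on both strands, the core of the antioxidant response element, TGACNNNGC, to which NRF2 binds, was present in the window of CYP4F11, where capitals mark it as it reads on the opposite strand, at position −156 from the start, and in none of the other 5; 10.9% of all promoters held it. The xenobiotic response element core GCGTG (32.2% of all promoters) and a pattern of 4 runs of at least GGG with 1 to 7 bases between them (23.5%) were in none of the 6. The letters TATAAA were found at position −26 of AKR1C3 on the opposite strand alone, so that the gene's own strand does not hold them there (10.7% of all promoters held them on either strand). Below are the windows of CYP4F11, the gene with the largest fitted difference between genotypes, at chr19:15934868-15935117 on the minus strand, and of CYP4F3, its neighbour with a smaller difference, at chr19:15641062-15641311 on the plus strand (58.5% identical over 212 aligned bases).
CYP4F11: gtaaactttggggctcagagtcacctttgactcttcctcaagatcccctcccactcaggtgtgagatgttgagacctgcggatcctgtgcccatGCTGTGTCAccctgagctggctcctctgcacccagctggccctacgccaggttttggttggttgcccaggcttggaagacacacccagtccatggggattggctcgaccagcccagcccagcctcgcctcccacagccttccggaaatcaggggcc
CYP4F3: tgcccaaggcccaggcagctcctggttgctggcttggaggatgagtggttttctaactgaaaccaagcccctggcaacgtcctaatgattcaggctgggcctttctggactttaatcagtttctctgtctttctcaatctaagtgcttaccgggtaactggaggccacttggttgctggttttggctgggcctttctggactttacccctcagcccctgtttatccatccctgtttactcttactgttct

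The windows of AKR1C1, at chr10:4963165-4963414 on the plus strand, and of AKR1C2, at chr10:5003858-5004107 on the minus strand, are shown because they are copies of each other: 245 of 246 aligned bases were identical. That of AKR1C3 was 76.8% identical to AKR1C1.
AKR1C1: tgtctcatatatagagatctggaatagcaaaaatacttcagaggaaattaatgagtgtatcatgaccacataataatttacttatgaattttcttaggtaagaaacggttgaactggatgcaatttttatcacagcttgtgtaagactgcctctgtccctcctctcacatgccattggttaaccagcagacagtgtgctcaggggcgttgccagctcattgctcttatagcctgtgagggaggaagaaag
AKR1C2: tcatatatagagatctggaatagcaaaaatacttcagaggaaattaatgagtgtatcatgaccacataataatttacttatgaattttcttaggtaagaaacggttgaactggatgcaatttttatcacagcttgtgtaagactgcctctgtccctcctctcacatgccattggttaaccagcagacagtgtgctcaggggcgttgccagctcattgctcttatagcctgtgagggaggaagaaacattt

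The 10 enzymes formed 2 ranges of abundance. In wild-type cells with vehicle the aldo-keto reductases and aldehyde dehydrogenases had means of 659 to 2083 FPKM, and CES1 and the CYP4F genes means of 2.53 to 3.48 FPKM. By the mean over the 12 libraries, ALDH1A1 was in rank 32 of the 11881 tested genes, AKR1B10 in rank 35, ALDH3A1 in rank 37, AKR1C3 in rank 48, AKR1C2 in rank 120 and AKR1C1 in rank 140. The low range began with CYP4F3 in rank 10078, and CES1 was in rank 11336. In wild type with vehicle the order was ALDH1A1, AKR1B10, ALDH3A1, AKR1C3, AKR1C2, AKR1C1, CYP4F3, CYP4F11, CES1 and CYP4F12. The libraries of ALDH1A1 and AKR1B10, of ALDH3A1 and AKR1C3, of AKR1C2 and AKR1C1, and of each pair of neighbours among the 4 low genes overlapped there. Within the same library, however, ALDH3A1 was above AKR1C3, AKR1C2 above AKR1C1 and CYP4F3 above CYP4F11 in 3 of 3, whereas the order of the other overlapping pairs varied between libraries. With pyridostatin the libraries labelled PARP3-/- had ALDH3A1 in the first place (1800 ± 74.8 FPKM, SD, n = 3), above ALDH1A1 (1579 ± 30.2 FPKM) without overlap.

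**Figure D1:**
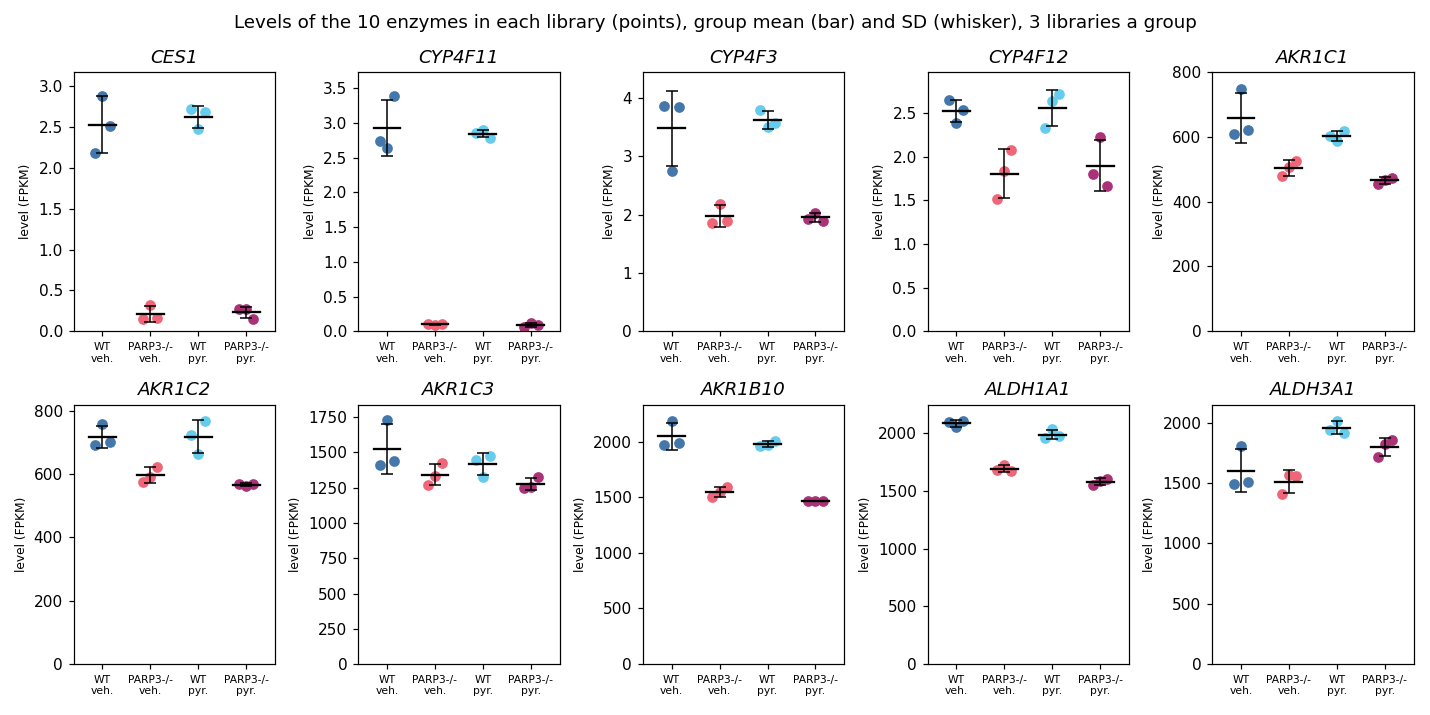
Level of each enzyme in FPKM (vertical axis from 0, a scale of its own in each panel) in the 12 libraries, with points for libraries, a bar for the group mean and whiskers for the SD (n = 3). CES1 and CYP4F11 were below 0.4 FPKM in all 6 libraries labelled PARP3-/- and above 2 FPKM in all 6 wild-type libraries; the other genes differed less.

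CES1 is best known in liver and macrophages. With vehicle its level was 2.18, 2.89 and 2.51 FPKM in the wild-type libraries and 0.149, 0.324 and 0.161 FPKM in the libraries labelled PARP3-/-. With pyridostatin it was 2.72, 2.47 and 2.68 FPKM in wild type and 0.272, 0.269 and 0.152 FPKM in the libraries labelled PARP3-/-. All wild-type libraries lay above all libraries labelled PARP3-/-, and the treatments overlapped within each genotype. The ratio of the means, wild type over PARP3-/-, was 12 with vehicle and 11.4 with pyridostatin. The log2 fold change on log2(FPKM + 1), which understates the change of such low genes, was −1.54 with vehicle and −1.56 with pyridostatin (standard error 0.0894 each). Without wild-type vehicle replicate 2 it was −1.47 with vehicle. The FPKM levels correspond to about 108 to 153 reads per wild-type library and 7 to 16 reads per library labelled PARP3-/-. Its pseudogene CES1P1 stood at 0.126 ± 0.0320 FPKM (SD, n = 3) in wild type and 0.0132 ± 0.0156 FPKM in PARP3-/- with vehicle, far below CES1, and the windows they share leave the split of these reads uncertain.

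CYP4F11, a P450 that hydroxylates long-chain fatty acids and several drugs, had the largest difference of the 10. With vehicle it was at 2.74, 2.65 and 3.39 FPKM in wild type and at 0.103, 0.0953 and 0.105 FPKM in the libraries labelled PARP3-/-. With pyridostatin it was at 2.86, 2.90 and 2.79 FPKM in wild type and at 0.0548, 0.117 and 0.0923 FPKM in the libraries labelled PARP3-/-. The genotypes did not overlap under either treatment. The ratio of the means, wild type over PARP3-/-, was 29 with vehicle and 32.4 with pyridostatin, and the log2 fold change was −1.83 and −1.82 (standard error 0.0743 each). About 213 to 283 reads lay behind each wild-type value and 4 to 9 reads behind each value in PARP3-/-, so the ratio itself is imprecise. With a pseudocount of 0.1 in place of 1 the log2 fold change was −3.91 with vehicle and −3.98 with pyridostatin for CYP4F11, and −3.11 and −3.06 for CES1.

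The neighbours CYP4F3 and CYP4F12 were lower in PARP3-/- by much less. CYP4F3, which inactivates leukotriene B4 by omega-hydroxylation, was at 3.86, 2.75 and 3.84 FPKM in wild type and 1.86, 2.19 and 1.89 FPKM in PARP3-/- with vehicle. With pyridostatin it was at 3.80, 3.50 and 3.57 FPKM in wild type and 1.93, 2.04 and 1.89 FPKM in PARP3-/-. The groups did not overlap, and the log2 fold change was −0.58 with vehicle (−0.71 without wild-type vehicle replicate 2, its lowest wild-type library) and −0.65 with pyridostatin. CYP4F12, a P450 that hydroxylates arachidonic acid and antihistamines, was at 2.65, 2.39 and 2.54 FPKM in wild type and 1.51, 1.83 and 2.07 FPKM in PARP3-/- with vehicle. With pyridostatin the values were 2.33, 2.64 and 2.72 against 1.80, 2.23 and 1.66 FPKM. Again no library of one genotype reached the other, and the log2 fold changes were −0.33 and −0.30.

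The make-up of the family differed accordingly. CYP4F11 made up 32.8 ± 2.77% of the summed FPKM of the 3 genes (SD, n = 3) in wild type with vehicle and 2.61 ± 0.321% in PARP3-/-. With pyridostatin its share was 31.5 ± 0.712% and 2.21 ± 0.667%. The sum was 8.93 ± 1.03 FPKM in wild type and 3.89 ± 0.357 FPKM in PARP3-/- with vehicle. Other CYP4F names stood in the table beside them: CYP4F2 was at 0.103 to 0.214 FPKM in the group means, and CYP4F8 and CYP4F22 were listed at 0 in every library.

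**Figure D2:**
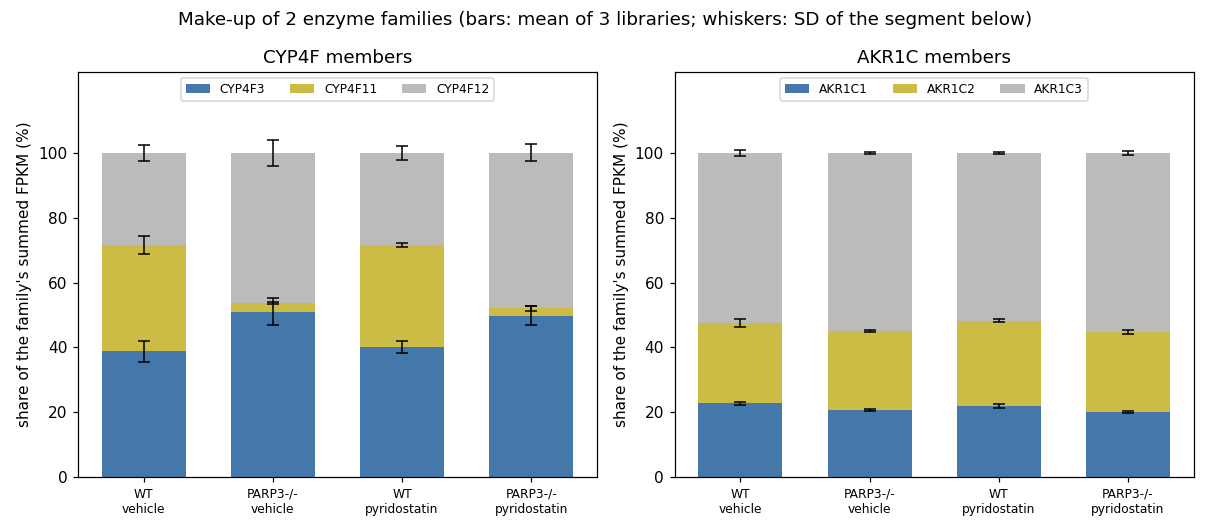
Share of each gene in the summed FPKM of the CYP4F members (left) and AKR1C members (right), in percent, as the mean of 3 libraries per group with the SD of the segment below each whisker. CYP4F11 took 32.8% of its family in wild type and 2.61% in PARP3-/- with vehicle; in the AKR1C family AKR1C3 took 51.8% to 55.3%.

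The aldo-keto reductases were abundant in every library and slightly lower in PARP3-/-. AKR1B10, which reduces retinal and other aldehydes, was at 1968, 2187 and 1992 FPKM in wild type and 1504, 1544 and 1595 FPKM in PARP3-/- with vehicle. With pyridostatin it was at 1958, 1971 and 2008 FPKM against 1465, 1464 and 1464 FPKM. The genotypes did not overlap, and its log2 fold changes of −0.40 and −0.43 were the largest among the 6 abundant enzymes. Without wild-type vehicle replicate 2, its highest library, the log2 fold change of AKR1B10 with vehicle was −0.36. The near copy AKR1B15 was at 142 ± 9.61 FPKM in wild type and 111 ± 2.55 FPKM in PARP3-/- with vehicle (SD, n = 3).

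AKR1C1, AKR1C2 and AKR1C3 reduce steroid hormones and prostaglandins as well as foreign ketones. AKR1C1 was at 608, 747 and 621 FPKM in wild type and 479, 506 and 526 FPKM in PARP3-/- with vehicle, and at 604, 587 and 617 against 455, 468 and 474 FPKM with pyridostatin. AKR1C2 was at 693, 758 and 702 against 575, 590 and 624 FPKM with vehicle, and at 725, 662 and 767 against 570, 562 and 568 FPKM with pyridostatin. For both genes all wild-type libraries lay above all libraries labelled PARP3-/-. AKR1C3, which also makes testosterone from androstenedione, was at 1408, 1727 and 1437 against 1272, 1332 and 1423 FPKM with vehicle, where the genotypes overlapped, and at 1449, 1326 and 1474 against 1250, 1257 and 1323 FPKM with pyridostatin, where they did not overlap. The log2 fold changes with vehicle were −0.38 for AKR1C1, −0.27 for AKR1C2 and −0.18 for AKR1C3, and without wild-type vehicle replicate 2, the highest of the wild-type vehicle libraries for all 3 genes, they were −0.29, −0.23 and −0.08. The ratio of AKR1C3 to AKR1C1 was 2.31 ± 0.00155 in wild type and 2.66 ± 0.0387 in PARP3-/- with vehicle (SD, n = 3), and 2.35 ± 0.0774 and 2.74 ± 0.0548 with pyridostatin, again without overlap, within the limit that shared windows set to any ratio in this family.

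Of the aldehyde dehydrogenases, ALDH1A1 stood apart between genotypes and ALDH3A1 overlapped with vehicle. ALDH1A1, which makes retinoic acid from retinal, was at 2096, 2051 and 2102 FPKM in wild type and 1677, 1724 and 1675 FPKM in PARP3-/- with vehicle. With pyridostatin it was at 1956, 2032 and 1974 against 1546, 1586 and 1606 FPKM, so the genotypes stood apart under both treatments (log2 fold change −0.30 and −0.33). ALDH3A1, which clears medium-chain and aromatic aldehydes, was at 1492, 1809 and 1509 FPKM in wild type and 1406, 1570 and 1562 FPKM in PARP3-/- with vehicle, and these groups overlapped. With pyridostatin it was at 1941, 2018 and 1917 against 1716, 1828 and 1857 FPKM. Its log2 fold changes between genotypes were −0.08 with vehicle and −0.12 with pyridostatin, and the first was 0.01 without wild-type vehicle replicate 2, so that no direction can be given with vehicle.

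**Figure D3:**
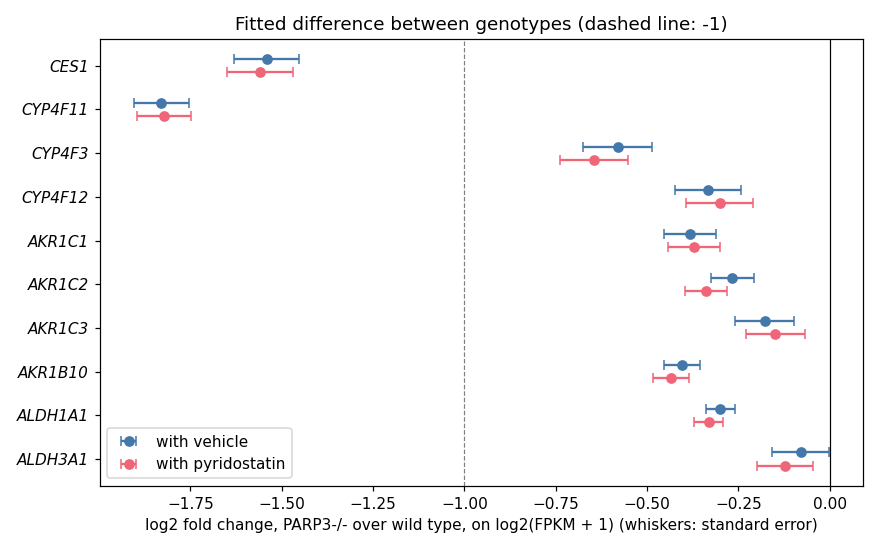
Fitted log2 fold change of each enzyme, PARP3-/- over wild type, on log2(FPKM + 1), with vehicle and with pyridostatin; whiskers are standard errors and the dashed line marks −1. CES1 and CYP4F11 lay between −1.83 and −1.54, and the other 8 genes between −0.65 and −0.08.

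As a set, all 10 enzymes had a negative fitted difference between genotypes under both treatments (except ALDH3A1 with vehicle once wild-type vehicle replicate 2 was left out), with a median log2 fold change of −0.36 with vehicle and −0.35 with pyridostatin, beside 0.01 and 0.01 over all tested genes. CES1 and CYP4F11, picked for being lower, were the 2 of 10 past an adjusted p of 0.05 and a log2 fold change below −1 in the fit across all genes, which called 0.210% of the tested genes with vehicle and 0.236% with pyridostatin; their call follows from the choice. All libraries labelled PARP3-/- lay below all wild-type libraries for 8 of 10 genes with vehicle (9.17% of all genes) and for 10 of 10 with pyridostatin (15.9%). Since these differences helped to choose the genes, nothing is read from the counts. For a sense of scale among abundant genes, the 150 names with the highest mean, a number set after the values were seen, had a median log2 fold change of −0.11 in both comparisons. With vehicle 10 of them were lower and 4 higher at an adjusted p under 0.05 from limma, and AKR1B10 was the fourth lowest of the 150. The aldo-keto reductases and aldehyde dehydrogenases described here are themselves among the 150 names and in these counts, so the 150 are no separate background. In bulk samples, fewer cells that express a gene and less RNA per cell cannot be told apart.

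The 10 enzymes were not chosen by their response to pyridostatin, so these contrasts were tested. Tested with limma, 0 of 10 genes passed an adjusted p of 0.05 in wild type (4.17% of all tested genes did) and 0 of 10 in PARP3-/- (5.56%). At an unadjusted p under 0.05 the counts were 1 of 10 in wild type and 2 of 10 in PARP3-/-. Of all 11881 tested genes, 2410 and 2329 had such a p, so these counts single out no response of the enzymes. Leaving ALDH3A1 aside, the fitted log2 fold changes ran from −0.12 to 0.05 in wild type and from −0.11 to 0.05 in PARP3-/-, and their 95% intervals reached from −0.28 to 0.26. CES1 had a log2 fold change of 0.04 in wild type (95% interval −0.15 to 0.24) and 0.02 in PARP3-/- (−0.17 to 0.22). CYP4F11 had −0.02 in wild type (−0.19 to 0.14) and −0.02 in PARP3-/- (−0.18 to 0.15). For both genes the values in PARP3-/- say little, since at these levels the pseudocount of 1 FPKM holds any change near 0; the ratio of the means there, pyridostatin over vehicle, was 1.09 for CES1 and 0.873 for CYP4F11, on few reads.

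ALDH3A1 was the enzyme with the largest response. All 3 pyridostatin libraries lay above all 3 vehicle libraries in each genotype, which was true of 13.4% of all tested genes in wild type and 16.6% in PARP3-/-, and the ratio of the means was 1.22 in wild type and 1.19 in PARP3-/-. The log2 fold change was 0.29 in wild type (95% interval 0.12 to 0.47, limma adjusted p = 0.0640) and 0.25 in PARP3-/- (0.08 to 0.42, limma adjusted p = 0.0917), neither past the threshold. Without wild-type vehicle replicate 2, whose 1809 FPKM was the highest vehicle value, the log2 fold change in wild type was 0.38 (limma adjusted p = 0.00401). In PARP3-/- the log2 fold change stayed at 0.25, and the limma adjusted p was 0.0108. There the standard error, from a spread shared by all groups, was 0.0488 in place of 0.0773. With the replicate number as a block, the adjusted p was 0.0451 in wild type and 0.0625 in PARP3-/-. Over the alternatives the adjusted p ran from 0.00401 to 0.303 in wild type and from 0.0108 to 0.270 in PARP3-/-.

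A further contrast, the mean of the pyridostatin effects of both genotypes, was added after it was seen that ALDH3A1 moved alike in both. In it ALDH3A1 had a log2 fold change of 0.27 (95% interval 0.15 to 0.39, limma adjusted p = 0.00826) and was the 1 of 10 enzymes with an adjusted p under 0.05, as were 13.9% of all tested genes. Because the values themselves prompted this contrast, its p is no separate support for a rise, which neither comparison within a genotype called. ALDH1A1 had −0.08 (−0.15 to −0.02, limma adjusted p = 0.0765) and AKR1C1 −0.12 (−0.23 to −0.01, adjusted p = 0.151), and the other 7 had 95% intervals that included 0. Among the 150 most abundant names, a number also set after the values were seen, ALDH3A1 had rank 2 by fitted rise in this contrast. Its rank was 3 in wild type and 3 in PARP3-/-. These ranks are a description.

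**Figure D4:**
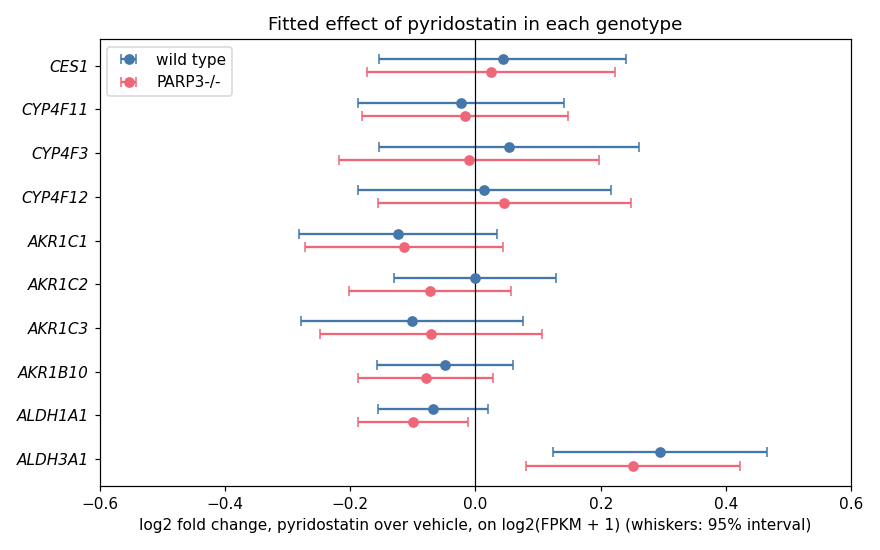
Fitted log2 fold change of each enzyme, pyridostatin over vehicle, on log2(FPKM + 1), in wild type and PARP3-/-; whiskers are 95% intervals. ALDH3A1, at 0.29 and 0.25, was the one gene whose interval lay above 0 in both genotypes; that of ALDH1A1 in PARP3-/- lay below 0.

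The difference between genotypes was not detectably altered by pyridostatin. For the interaction 0 of 10 enzymes and 0.00% of all genes passed an adjusted p of 0.05 (limma), and 0 of 10 and 521 of 11881 had an unadjusted p under 0.05. The fitted interactions ran from −0.07 to 0.03 on the log2 scale, with 95% intervals reaching from −0.36 to 0.32. For CES1 and CYP4F11 the same limit of the pseudocount applies.

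Other enzymes and regulators of the same pathways were taken from 8 lists of 243 genes, of which 129 were tested; the 10 enzymes are not in them. With vehicle 9 were higher and 15 lower in PARP3-/- at an adjusted p under 0.05 from limma, against 6.40% and 3.01% of all tested genes, and with pyridostatin 11 were higher and 19 lower, against 7.07% and 3.85%. The median log2 fold change over the 129 genes was 0.00 with vehicle and 0.02 with pyridostatin, next to 0.01 over all genes in each. CYP1B1 and UGT8 also passed a log2 fold change of 1. The lists were chosen with earlier results of these data known, so their counts are a description and support no pattern of these pathways.

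Among 7 tested esterases 3 were higher and 1 lower with vehicle. CES2, the main intestinal carboxylesterase, was at 16.6 ± 0.213 FPKM in PARP3-/- and 13.7 ± 0.712 FPKM in wild type (SD, n = 3; log2 fold change 0.26, limma adjusted p = 0.00253), opposite to CES1. AADAC, an esterase of the endoplasmic reticulum, rose by 0.40 on the log2 scale (adjusted p = 0.000793), and PON3, a lactonase, fell by 0.22 (adjusted p = 0.00682). With pyridostatin these 3 kept their direction and their call.

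Among 12 tested cytochromes P450 and their electron donors 4 passed with vehicle, all of them lower. CYP1B1, which oxidizes polycyclic hydrocarbons and oestradiol, was at 4.89 ± 0.417 FPKM in PARP3-/- and 12.8 ± 2.09 FPKM in wild type with vehicle (log2 fold change −1.22, limma adjusted p = 2.79e-05) and at 4.83 ± 0.0563 against 11.8 ± 1.13 FPKM with pyridostatin (−1.13, adjusted p = 4.78e-05). CYP26B1, which degrades retinoic acid and was named after its values were seen, fell by 0.60 and 0.58.

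Among 17 tested carbonyl and quinone reductases 3 passed with vehicle, all of them lower: AKR1B15 (log2 fold change −0.35, limma adjusted p = 0.00235), NQO1, a quinone reductase (−0.29, adjusted p = 0.00150), and its relative NQO2 (−0.34, adjusted p = 0.0170). The coding sequence of AKR1B15 was 93.5% identical to that of AKR1B10, and 4.75% of the AKR1B10 windows occurred unchanged in AKR1B15. Whether reads of the far more abundant AKR1B10 were counted for AKR1B15 was not tested. NQO1 was at 558 ± 15.2 FPKM in PARP3-/- and 682 ± 33.4 FPKM in wild type (SD, n = 3). Among 19 aldehyde and alcohol dehydrogenases the 2 that passed were higher: ALDH1A3, a second retinal dehydrogenase, at 39.1 ± 0.891 against 29.4 ± 2.61 FPKM (0.40, limma adjusted p = 0.00182), and AOX1, an aldehyde oxidase (0.32, adjusted p = 0.0405).

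Among 21 tested conjugation enzymes 1 was higher and 3 lower with vehicle. UGT8, which adds galactose to ceramide and is not a drug enzyme, was at 2.14 ± 0.162 FPKM in PARP3-/- and 0.306 ± 0.102 FPKM in wild type (SD, n = 3; log2 fold change 1.27, limma adjusted p = 1.74e-06), and it passed the filter only through the libraries labelled PARP3-/-. SULT2B1, a sterol sulfotransferase named after its values were seen, fell by 0.94 with vehicle and 0.88 with pyridostatin. Of 7 drug efflux transporters 1 was lower with vehicle, ABCG2 (−0.41, limma adjusted p = 0.000777). Among pyridostatin libraries ABCC3 was higher in PARP3-/- than in wild type by 0.16 (limma adjusted p = 0.0132).

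Of 27 tested regulators 1 was higher and 2 lower with vehicle. FOXA1 rose by 0.26 (limma adjusted p = 0.0107), CEBPB fell by 0.65 (adjusted p = 0.00715) and RARB, a retinoic acid receptor, fell by 0.32 (adjusted p = 0.0234). NFE2L2, which encodes NRF2, was at 26.1 ± 0.497 FPKM in PARP3-/- and 29.2 ± 1.55 FPKM in wild type with vehicle (SD, n = 3). Among pyridostatin libraries NFE2L2 was lower in PARP3-/- than in wild type by 0.17 (limma adjusted p = 0.0299). It was named after its values were seen. Of 19 enzymes of lipid mediators and lipid esters 2 were higher and 1 lower with vehicle. PTGR1, a prostaglandin reductase, fell by 0.30 (limma adjusted p = 0.00150). NCEH1, a cholesteryl ester hydrolase, rose by 0.38 (limma adjusted p = 0.00439), and PTGES, a prostaglandin E synthase, rose by 0.22 (limma adjusted p = 0.0271). Among pyridostatin libraries CEBPA was lower in PARP3-/- than in wild type by 0.23 (limma adjusted p = 0.00858) and PLA2G4A, a phospholipase, by 0.33 (adjusted p = 0.00327).

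**Figure D5:**
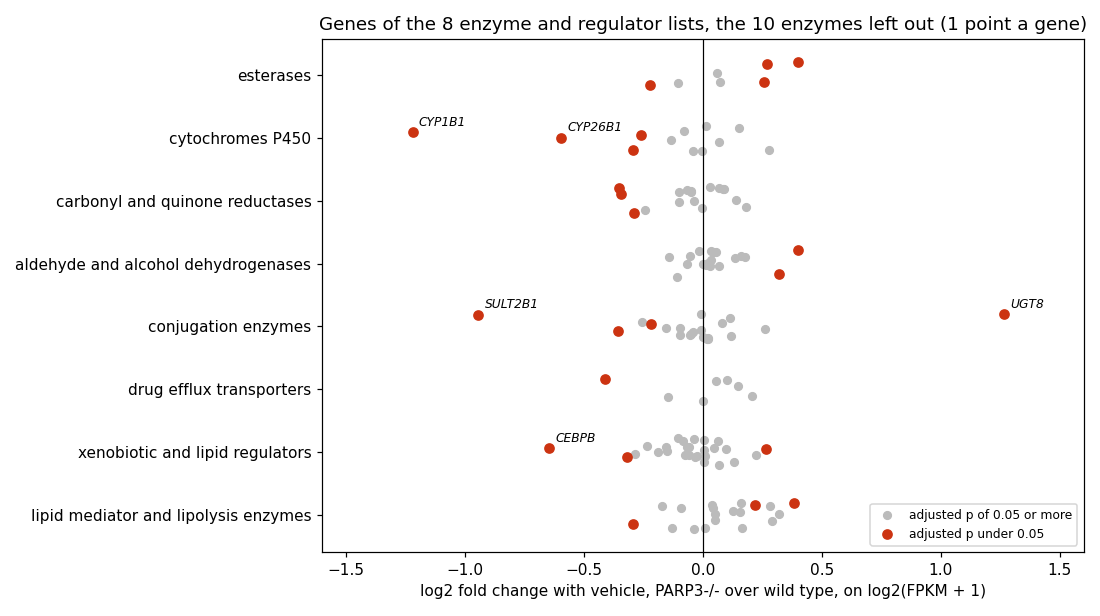
Log2 fold change with vehicle, PARP3-/- over wild type, on log2(FPKM + 1), of the 129 tested genes of the 8 lists (1 point a gene, vertical scatter for legibility). Genes with an adjusted p under 0.05 from limma are red, 9 above 0 and 15 below; CYP1B1 at −1.22 and UGT8 at 1.27 lay farthest out.

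Under pyridostatin 3 of the 129 listed genes were higher and 1 lower in wild type (limma, adjusted p under 0.05), and 2 were higher and 1 lower in PARP3-/-; these are smaller shares than the 4.17% and 5.56% of all tested genes. With single libraries left out the counts of both directions ran from 0 to 8 in wild type and from 0 to 21 in PARP3-/-. Both highest counts came without wild-type vehicle replicate 2. Calls over all genes rose in that setting too, to 710 of 11878 in wild type and 1554 of 11878 in PARP3-/-. The shares of the listed genes were then no longer the smaller ones. In wild type CES2 rose by 0.20 (adjusted p = 0.0253), ALDH1A3 by 0.28 (adjusted p = 0.0313) and ABCC5, an efflux pump, by 0.30 (adjusted p = 0.0423), and PTGES3 fell by 0.23 (adjusted p = 0.0230). In PARP3-/- CEBPB rose by 0.56 (adjusted p = 0.0272) and FOXA2 by 0.37 (adjusted p = 0.0484), and ALDH7A1 fell by 0.17 (adjusted p = 0.0417). The difference between the genotypes' responses did not pass for any of these genes; for CEBPB the interaction was 0.58 (unadjusted p = 0.00704, limma adjusted p = 0.999).

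The 5 nearest tested genes on each side of each of the 6 places, 60 in all, were compared between genotypes. They were taken by gene order without a limit of distance, so "beside" and "around" below give order and not closeness. With vehicle 9 were higher and 2 lower at an adjusted p under 0.05 from limma, and with pyridostatin 10 were higher and 2 lower. Of all tested genes 6.40% were higher and 3.01% lower with vehicle, and 7.07% and 3.85% with pyridostatin. Beside the CYP4F cluster, NOTCH3, a Notch receptor, was at 0.679 ± 0.0865 FPKM in PARP3-/- and 2.31 ± 0.208 FPKM in wild type with vehicle (SD, n = 3; log2 fold change −0.98, which understates the change of this low gene, limma adjusted p = 9.67e-06), and it reached the filter through the wild-type libraries only. KLF2, in the same stretch, was higher by 0.41 in PARP3-/- with pyridostatin. Beside CES1, the metallothionein MT2A rose by 0.71, and beside AKR1B10, PODXL rose by 0.91 and BPGM by 0.24. Around ALDH1A1, ANXA1 fell by 0.50 while GDA rose by 0.55 and NMRK1 by 0.38. LINC00704, KLF6 and NET1 beside the AKR1C cluster rose by 0.59, 0.45 and 0.30 with vehicle, against the direction of the AKR1C genes, and beside ALDH3A1 USP22 rose by 0.15 with vehicle and EPN2 by 0.18 with pyridostatin.

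The tested genes whose profile over the 12 libraries was nearest to CES1, by the root mean square distance between centred log2(FPKM + 1) values, were FGB (0.118), SUSD2 (0.132) and AQP3 (0.158). Nearest to CYP4F11 were FGB (0.203), SUSD2 (0.219) and FGA (0.261). FGB and FGA encode chains of fibrinogen, and AQP3 is a water and glycerol channel. FGB was at 3.93 ± 0.172 FPKM in wild type and 0.755 ± 0.104 FPKM in PARP3-/- with vehicle (SD, n = 3), and SUSD2 at 17.5 ± 0.311 and 5.80 ± 0.351 FPKM. The likeness rests on a difference between genotypes that these genes share in direction but not in size. The ratio of the means with vehicle, wild type over PARP3-/-, was 12 for CES1 and 29 for CYP4F11, larger than for FGB or SUSD2. The pseudocount of 1 FPKM narrows the changes of low genes, which brings unlike ratios near each other on this scale.

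Marker genes were read beside these results, since CES1 is also a gene of hepatocytes and macrophages. Of 8 epithelial markers 7 were tested, with KRT8 highest at 3114 FPKM in wild type with vehicle; EPCAM and CDH1 were lower in PARP3-/- (2.12 and 1.16 FPKM, and 14 and 10.2 FPKM, wild type first, with vehicle), and KRT19 was higher (90.5 and 163 FPKM). Of 8 alveolar and airway markers 0 reached a mean of 1 FPKM, SFTPB was listed at 0 in every library, NAPSA was highest with a group mean of at most 0.855 FPKM, and the summed level of the 8 was 0.591 to 1.18 FPKM over all libraries. Of 8 hepatocyte markers 0 reached 1 FPKM, and their sum was 0.296 to 0.645 FPKM. Of 8 monocyte and macrophage markers 2 were tested, CD68 and CD14. The summed level of the 8 was 17.6 to 20.9 FPKM in wild-type libraries and 24.6 to 28.3 FPKM in libraries labelled PARP3-/-. Most of that sum was CD68, at 15.3 FPKM in wild type and 20.1 FPKM in PARP3-/- with vehicle, opposite in direction to CES1. CD14 and ITGAM were also higher in PARP3-/- with vehicle, while LYZ and PTPRC, both near 0, were lower. CD163 and AIF1 were listed at 0 in every library, and PTPRC was at most 0.00259 FPKM in a group mean. Of 7 fibroblast and endothelial markers COL1A1 was tested (0.694 FPKM in wild type and 1.31 FPKM in PARP3-/- with vehicle). A listed 0 need not mean that a gene is silent, since RXRB, a broadly expressed nuclear receptor noticed after the values were seen, is listed at 0 in every library too. The part of these markers in the results was not tested.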

How the data were processed

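RNA-seq of 12 libraries was used (stranded mRNA, single-end reads of 75 bases). The authors deposited FPKM values per gene and library, without pooling replicates; the submitters' processing notes name bcl2fastq 2.16, STAR 2.5, Cufflinks and the builds hg19 and mm9, without roles, and gene coordinates of hg19 were not used. The authors tested counts with DESeq2; no counts were used here. Groups follow the labels. Names with a mean of at least 1 FPKM were fitted as log2(FPKM + 1) with limma 3.58.1 in R 4.3.3 (1 model of the 4 groups without a block, trended eBayes), with adjustment of p-values by Benjamini and Hochberg over all 11881 tested names. Gene names in the text are the 10 enzymes, list genes past an adjusted p of 0.05 and a log2 fold change of 1 (otherwise up to 3 with the smallest adjusted p), neighbours with an adjusted p under 0.05, and the 3 nearest profiles. The members and lists were chosen with earlier results of these data known. Depth was estimated from 278 genes (quartiles 22.8 and 25.8 M reads for the library used as reference). Sequences came from RefSeq (GRCh38.p14) and GENCODE release 29, handled in Python 3.11.15. The limma procedure was tested on simulated data. Alternatives were a pseudocount of 0.1, no filter, a stricter filter at 5 FPKM, quantile scaling, scaling to a common median, only the compared libraries, no trend, the replicate block and each library left out.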

Additional observations from a re-analysis of the deposited data

How the results depend on the processing

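The count of 2 enzymes past both thresholds between genotypes follows from how they were chosen; a mean of at least 5 FPKM removed both by construction and gave 0 in each comparison. With pyridostatin, ALDH3A1 passed in wild type after quantile normalization and with the replicate block (1 of 10 each) and in PARP3-/- after quantile normalization (1); leaving out single libraries gave 0 to 1 in each genotype, and 1 without wild-type vehicle replicate 2. For the added mean over both genotypes, quantile normalization, a common median and eBayes without a trend gave 2 of 10, and leaving out single libraries 1 to 2, with ALDH1A1 or AKR1C1 as the second gene. Listed genes between genotypes numbered 24 with vehicle, 12 with only the compared libraries and 17 to 36 with single libraries left out. With pyridostatin they numbered 30, and 20 to 49 with single libraries left out, the 49 without wild-type vehicle replicate 2. Leaving out that library also raised the calls over all genes in this comparison, from 1297 of 11881 to 2294 of 11878. Under pyridostatin the list counts varied: in wild type 4, 2 with a common median, 0 with only the compared libraries and 0 to 8 with single libraries left out; in PARP3-/- 3, 5 after quantile normalization, 10 with only the compared libraries and 0 to 21, the highest count in each without wild-type vehicle replicate 2. Neighbours numbered 11 with vehicle, 7 with a mean of at least 5 FPKM, 7 with only the compared libraries and 8 to 14 with single libraries left out, and 12 with pyridostatin, and 6 to 16, with 7 without wild-type pyridostatin replicate 1 or 3 and 6 without PARP3-/- pyridostatin replicate 2. The PARP3 difference was 0.431 to 0.856 FPKM with vehicle and 0.685 to 0.934 FPKM with pyridostatin when single libraries were left out. Deviations of same-numbered libraries from their group means correlated, over genes, at −0.120 to 0.216, and not over 0.1 in every pair. Such correlations cannot show whether same-numbered samples were prepared together, which the sources used here do not state. The main model therefore had no block, and the block was an alternative. The replicate block gave 22 and 31 listed genes and 10 and 8 neighbours between genotypes, and moved the call of ALDH3A1 in wild type. Of 1156 recomputed enzyme values 1123 kept their call and 0 reversed a called direction. Scaling shifted the median of all genes by at most 0.04. Depth limits CYP4F11 and CES1 in PARP3-/-, at fewer than 20 reads per library. The cause of each change was not tested.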
